A study of Mus musculus with 12 samples.

Results

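Immunity-related GTPases were examined as 7 genes, Igtp, Irgm1, Irgm2, Iigp1, Tgtp1, Tgtp2 and Ifi47, chosen by symbol from the 77175 genes of a deposited count table. All 7 symbols were found, each on 1 Ensembl identifier (ENSMUSG00000078853 for Igtp, ENSMUSG00000046879 for Irgm1, ENSMUSG00000069874 for Irgm2, ENSMUSG00000054072 for Iigp1, ENSMUSG00000078922 for Tgtp1, ENSMUSG00000078921 for Tgtp2 and ENSMUSG00000078920 for Ifi47), and all 7 passed the filter on low counts in every comparison. The 12 mouse libraries of bulk messenger RNA fall into 4 groups of 3. In every group, NOD-SCID mice, which have no T or B cells of their own, bore B16-F10 melanoma cells with the calcium reporter GCaMP6s (pLV[Exp]-Puro-EF1A>GCaMP6s), and all mice received OT-1 CD8+ T cells that had been activated with anti-CD3/anti-CD28 beads. Tumors were taken 2 days after the transfer. The melanoma sort labelled B16-F10 holds tumor cells without ovalbumin, and the melanoma sort labelled OVA holds tumor cells that also carry pLV[Exp]-Neo-EF1A>{ovalbumin}. Both were sorted by fluorescence for GCaMP6s. The T cell fraction labelled B16-F10 and the T cell fraction labelled OVA are C57BL/6J-OT-I cells taken from the respective tumors with CD8 beads. OT-1 cells carry a receptor for an ovalbumin peptide, so only the OVA tumors present the antigen they recognise. The ages of the mice, the number of mice and whether libraries of a group came from different mice are not given in the labels, so all p-values rest on the variation among libraries alone, and that variation could be purely technical.

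Immunity-related GTPases are interferon-inducible proteins of cell-autonomous defence, best known in mouse cells for restricting vacuole-dwelling parasites and bacteria. Irgm1, Igtp (also called Irgm3) and Irgm2 form the regulatory subclass, which sits on the membranes of the cell and keeps the others inactive there. Iigp1 (Irga6), the pair Tgtp1 and Tgtp2 (Irgb6) and Ifi47 (Irgd) belong to the effector subclass, whose members load onto the vacuole of the invader. Their transcription is known to follow interferon gamma through gamma-activated sites (GAS) in their promoters, and through IRF1, which binds interferon-stimulated response elements (ISRE).

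The promoters of 6 of the 7 genes were read from RefSeq (build GRCm38.p6, windows from 250 bases before to 50 bases after the start). Iigp1 had no window in that source, so its promoter was not searched. The windows were searched on both strands for the GAS letters TTCNNNGAA and for the ISRE letters, GAAA and a second GAAA with any 2 bases (NN) between them. The stretches around the ISRE are printed because they show what most of the family has in common. Capitals mark the GAS, where there is one, and the ISRE, and each stretch reads 5′ to 3′ on the strand of its gene. They lie at chr11:58199497-58199541 (plus strand) for Igtp, chr11:58214888-58214932 (plus strand) for Irgm2, chr11:48992304-48992348 (minus strand) for Tgtp1, chr11:49064263-49064307 (minus strand) for Tgtp2 and chr11:48871425-48871469 (minus strand) for Irgm1.
Igtp: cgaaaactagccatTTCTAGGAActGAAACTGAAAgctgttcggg
Irgm2: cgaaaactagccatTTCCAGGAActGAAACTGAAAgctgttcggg
Tgtp1: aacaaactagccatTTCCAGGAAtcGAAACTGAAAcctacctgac
Tgtp2: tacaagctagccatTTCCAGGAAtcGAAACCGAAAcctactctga
Irgm1: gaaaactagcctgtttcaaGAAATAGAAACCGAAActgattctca

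Igtp, Irgm2, Tgtp1 and Tgtp2 each held a GAS and an ISRE in the same order and at the same spacing, the GAS letters, any 2 bases, and the ISRE letters. Over the 45 bases shown, Igtp and Irgm2 were identical at 44 positions and Tgtp1 and Tgtp2 at 37. Irgm1 had 2 overlapping ISRE matches and no GAS match, and the Ifi47 window had neither. Ifi47 is annotated over 20401 bases, against 8037 for Igtp, and only the window at its annotated start was searched. Whether Ifi47 has the letters at another start was not tested. The last base of the ISRE lay 25 bases before the annotated start in Igtp, 55 in Irgm2, 68 in Tgtp1, 61 in Tgtp2 and 15 in Irgm1. The GAS letters occurred in 8.30% and the ISRE letters in 3.44% of all 32851 windows of this length. The combined letters, which contain both, were written down after the stretches were seen, and occurred in 5 windows (0.0152%). The only window besides those of the 4 members was that of Gm12185, another gene of the same GTPase family.

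Total counts ran from 15494683 to 33263730 per library, and levels are given as CPM, counts scaled to the total of the library. The sorted fractions were checked against their markers. Melanoma cell markers (12 genes) summed to between 27550 and 27630 CPM in the melanoma sort labelled B16-F10 and between 11880 and 11900 CPM in that labelled OVA, with at most 307.5 CPM in a T cell library. T cell markers (14 genes) summed to between 981 and 1018 CPM over the 6 T cell libraries, to between 132 and 142 CPM in the OVA melanoma sort and to at most 6.86 CPM in the B16-F10 melanoma sort, where Cd3e, Trac, Trbc2 and Cd2 were at 0. Endothelial cell markers (10 genes) summed to between 9398 and 10200 CPM in the T cell fractions and between 4098 and 4148 CPM in the OVA melanoma sort, against at most 314.6 CPM in the B16-F10 melanoma sort, where Emcn and Cldn5 were at 0. Fibroblast markers (10 genes) summed to at least 5158 CPM in the T cell fractions, between 2150 and 2164 CPM in the OVA melanoma sort and at most 239 CPM in the B16-F10 melanoma sort. Macrophage and monocyte markers (12 genes) summed to between 1948 and 1956 CPM in the OVA melanoma sort and to at most 13.6 CPM in the B16-F10 melanoma sort. The OVA melanoma sort and both T cell fractions thus held RNA of several cell types, and in such bulk samples fewer cells of a type and less RNA per cell cannot be told apart.

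All 7 genes were highest in the T cell fraction labelled OVA and lowest in the melanoma sort labelled OVA, with no overlap between libraries. That order held for 1.02% of the 18562 genes tested over all libraries. Summed over the 7 genes, the level was 4108 ± 46.5 CPM (SD, n = 3 here and throughout) in the OVA T cell fraction and 1344 ± 7.21 CPM in the B16-F10 melanoma sort. The B16-F10 T cell fraction held 882.5 ± 2.89 CPM and the OVA melanoma sort 355.5 ± 2.35 CPM. The 2 middle groups changed places from gene to gene, as given below.

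**Figure D1:**
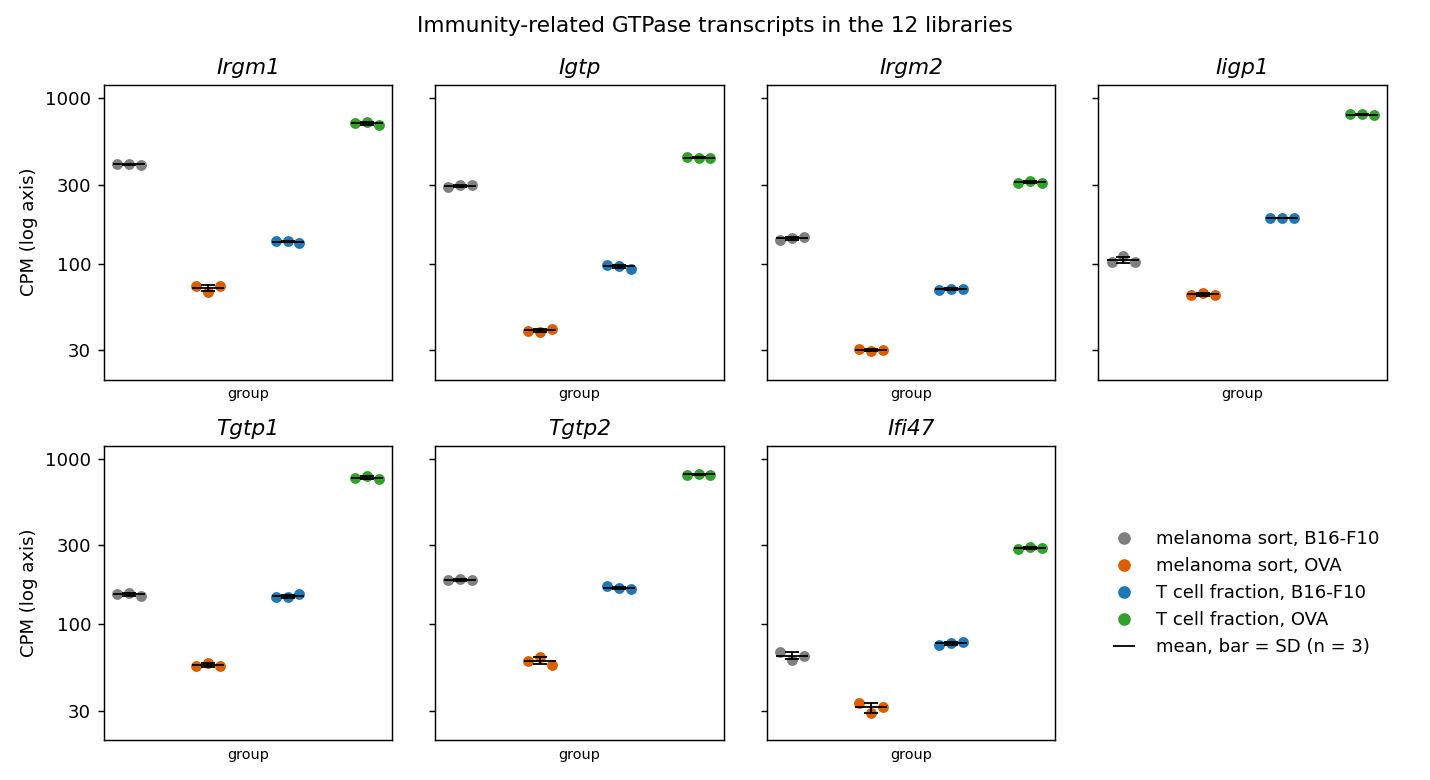
Each panel plots 1 gene on a log axis of CPM, with a point for each of the 12 libraries and a bar for the mean and SD of 3 libraries. In every panel the OVA T cell fraction is highest and the OVA melanoma sort lowest, while the B16-F10 melanoma sort lies above the B16-F10 T cell fraction for Irgm1, Igtp and Irgm2 and below it for Iigp1 and Ifi47.

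Among the regulators, Irgm1, which guards the cell's own membranes, stood at 402, 398 and 393 CPM in the B16-F10 melanoma sort and at 73.5, 67.6 and 73.1 CPM in the OVA melanoma sort. In the T cell fractions Irgm1 stood at 137, 136 and 134 CPM for B16-F10 and at 704.5, 714 and 689 CPM for OVA. The melanoma sort without ovalbumin was therefore second highest for this gene, at 397.9 ± 4.35 CPM against 135.7 ± 1.33 CPM in the B16-F10 T cell fraction. Igtp, another guard of membranes such as those of lipid droplets and the endoplasmic reticulum, stood at 291, 297 and 299.5 CPM in the B16-F10 melanoma sort and at 39.3, 38.7 and 40.6 CPM in the OVA melanoma sort. The T cell fractions held 98.7, 96.7 and 93.6 CPM of Igtp for B16-F10 and 441.1, 436 and 432.5 CPM for OVA. The order of the 4 groups was the same as for Irgm1, and no library of one group overlapped another. Irgm2, the third regulator, stood at 139.5, 143 and 145 CPM in the B16-F10 melanoma sort and at 30.6, 29.8 and 30.05 CPM in the OVA melanoma sort. It stood at 69.55, 70.7 and 70.8 CPM in the B16-F10 T cell fraction and at 307, 317 and 308 CPM in the OVA T cell fraction. Irgm2 thus kept the order of the other regulators.

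Of the effectors, Iigp1 and Ifi47 had a different middle. Iigp1, the effector on which the loading of vacuoles has been studied most, stood at 103, 111 and 102 CPM in the B16-F10 melanoma sort and at 64.6, 67.0 and 64.65 CPM in the OVA melanoma sort. The T cell fractions held 189, 189 and 188 CPM for B16-F10 and 799.7, 797 and 788.5 CPM for OVA. For Iigp1 the B16-F10 T cell fraction, not the B16-F10 melanoma sort, was second highest. Ifi47 stood at 67.8, 61.4 and 64.8 CPM in the B16-F10 melanoma sort and at 33.55, 29.2 and 31.9 CPM in the OVA melanoma sort. Its levels in the T cell fractions were 75.35, 77.5 and 77.9 CPM for B16-F10 and 286, 293 and 289 CPM for OVA. Ifi47 had the order of Iigp1, with a smaller gap between the 2 middle groups.

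Tgtp1 and Tgtp2 are near-identical copies, and how the authors' counting shared reads between them is not stated, so their separate values are uncertain. Tgtp1 stood at 153, 154 and 149 CPM in the B16-F10 melanoma sort and at 55.95, 58.5 and 56.2 CPM in the OVA melanoma sort. It stood at 147, 146 and 152 CPM in the B16-F10 T cell fraction and at 769, 787 and 750.2 CPM in the OVA T cell fraction. The 2 middle groups overlapped for Tgtp1. Tgtp2 stood at 185, 187 and 184.6 CPM in the B16-F10 melanoma sort and at 60.6, 63.7 and 57.3 CPM in the OVA melanoma sort. It stood at 169.6, 165 and 164 CPM in the B16-F10 T cell fraction and at 802, 809.5 and 802 CPM in the OVA T cell fraction. In CPM Tgtp2 had the order of the regulators, with no overlap. The ratio of Tgtp1 to Tgtp2 counts lay between 0.807 and 0.981 in every library, lowest in the B16-F10 melanoma sort (0.807 to 0.828).

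The melanoma sorts were compared to ask whether tumor cells that present the antigen differ in these transcripts. All 7 genes fell in the OVA melanoma sort against the B16-F10 melanoma sort, in a comparison in which 37.4% of 17418 genes fell (edgeR's quasi-likelihood test, TMM scaling, Benjamini-Hochberg adjusted p under 0.05). Their median log2 fold change was -1.45, beside 0.04 over all genes tested. Against a fold of 2, 5 of the 7 still fell, beside 4.58% of all genes. Igtp fell by 2.73 on the log2 scale (SE 0.0245, edgeR adjusted p = 4.12e-29), or 6.65-fold, and had the 100th lowest value of all genes tested. Irgm1 fell by 2.30 (SE 0.0234, edgeR adjusted p = 4.73e-28) and Irgm2 by 2.07 (SE 0.03095, edgeR adjusted p = 7.36e-25), or 4.93-fold and 4.19-fold. The effectors fell less, Tgtp2 by 1.45 (SE 0.02775) and Tgtp1 by 1.26 (SE 0.0272), or by 1.36 (SE 0.0217) when the counts of the pair were summed. Ifi47 fell by 0.85 (SE 0.0468) and Iigp1 by 0.52 (SE 0.0327, edgeR adjusted p = 7.84e-13), a 1.44-fold difference. The 95% interval of each regulator (from -2.13 to -2.005 for Irgm2, the least changed) did not overlap that of any effector (from -1.51 to -1.40 for Tgtp2, the most changed); this was set side by side, not tested.

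The markers of other cells moved with this comparison, as given above, and their part in the result was not tested. With libraries scaled to the melanoma cell markers, which shifted the median of all genes from 0.04 to 1.09, the regulators remained lower in the OVA melanoma sort. Igtp then had a log2 value of -1.69, Irgm1 of -1.255 and Irgm2 of -1.02, and Tgtp2 and Tgtp1 had -0.41 and -0.21. Under that scaling Ifi47 and Iigp1 turned to the other side, with values of 0.20 and 0.52 (edgeR adjusted p = 0.00061 and 4.75e-13).

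The T cell fractions were compared to ask whether cells taken from tumors with the antigen differ from those taken from tumors without it. All 7 genes rose in the OVA T cell fraction, in a comparison in which 23.7% of 16536 genes rose. Their median log2 fold change was 2.23, beside -0.01 over all genes. All 7 also rose against a fold of 2, as did 1.79% of all genes. Here the 7 values lay close together. Tgtp1 and Irgm1 rose by 2.43 each (SE 0.0200 and 0.0190, edgeR adjusted p = 3.63e-33 and 1.16e-33), which was 5.39-fold and 5.38-fold. Tgtp2 rose by 2.33 (SE 0.0171), Igtp by 2.23 (SE 0.0214), Irgm2 by 2.20 (SE 0.0236) and Iigp1 by 2.13 (SE 0.0162). Ifi47 rose least, by 1.97 (SE 0.0230, edgeR adjusted p = 1.24e-29), or 3.92-fold. All 7 stood among the 157 highest fold changes of this comparison.

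Of the marker sums, those of T cells, endothelial cells and fibroblasts lay close together in the T cell fractions. T cell markers had means of 1012 ± 6.33 CPM for B16-F10 and 984.5 ± 4.08 CPM for OVA, endothelial cell markers 10160 ± 49.8 and 9429 ± 32.2 CPM, and fibroblast markers 5512 ± 48.6 and 5192 ± 43.9 CPM. Macrophage and monocyte markers had 401 ± 4.66 and 289.6 ± 4.92 CPM, dendritic cell markers 309 ± 4.04 and 247 ± 3.72 CPM, and neutrophil markers 48.9 ± 1.23 and 84.5 ± 2.07 CPM. Melanoma cell markers had 304.1 ± 3.313 and 132 ± 4.625 CPM. All 11 of them that were tested fell in the OVA T cell fraction (median log2 -0.95), beside 22.4% of all genes. NK cell markers, among them Gzma and Eomes, which activated T cells also express, differed more, at 75.0 ± 1.45 and 264 ± 2.43 CPM, and B cell markers had 4.14 ± 0.570 and 3.67 ± 0.626 CPM. Which cells of the T cell fractions held the GTPase transcripts was not tested. Scaling to the T cell markers kept all 7 genes higher, from 1.95 for Ifi47 to 2.41 for Tgtp1.

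**Figure D2:**
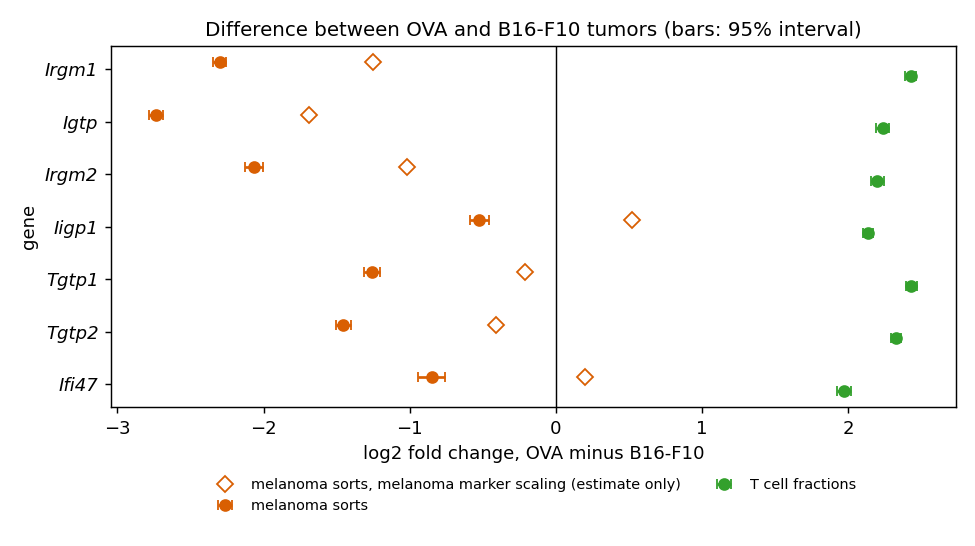
Points give the log2 fold change of each gene, OVA minus B16-F10, in the melanoma sorts and in the T cell fractions, with 95% intervals. Open diamonds give the melanoma sort values under scaling to melanoma cell markers. All values of the T cell fractions lie near 2, while the melanoma sort values spread from -2.73 for Igtp to -0.52 for Iigp1. The diamonds of Ifi47 and Iigp1 lie above 0.

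The difference between these 2 effects was tested directly over all 12 libraries. It was called above 0 (edgeR adjusted p under 0.05) for all 7 genes, as for 27.7% of 18562 genes. It was greatest for Igtp, at 4.96 on the log2 scale (SE 0.0326, edgeR adjusted p = 6.97e-35), followed by Irgm1 at 4.725 (SE 0.0317) and Irgm2 at 4.26 (SE 0.0367). Tgtp2 had 3.78 (SE 0.0322) and Tgtp1 3.685 (SE 0.0346). Ifi47 and Iigp1 had the smallest differences, 2.81 (SE 0.0507) and 2.65 (SE 0.0350, edgeR adjusted p = 1.85e-28). The median over the 7 genes was 3.78, beside -0.16 over all genes.

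Within OVA tumors, the T cell fraction held far more of every member than the melanoma sort. All 7 were higher, in a comparison in which 37.3% of 18562 genes were, from 9.93-fold for Ifi47 to 14.8-fold for Tgtp1 (log2 3.31, SE 0.0311, and 3.89, SE 0.0225). Within B16-F10 tumors the members split. The regulators Igtp, Irgm1 and Irgm2 were lower in the T cell fraction by log2 values of -1.37 (SE 0.0226), -1.30 (SE 0.0226) and -0.77 (SE 0.0263), in a comparison in which 40.4% of genes were lower. Iigp1 was higher there by 1.08 (SE 0.0253) and Ifi47 by 0.50 (SE 0.0373), beside 45.5% of genes higher. Tgtp1 and Tgtp2 were called slightly higher, by 0.21 (SE 0.0250) and 0.09 (SE 0.0230, edgeR adjusted p = 0.00085). With libraries scaled by total counts both turned to the other side (-0.04 and -0.16), and without T cell fraction B16-F10 replicate 1 Tgtp2 was no longer called (0.05, edgeR adjusted p = 0.0914). The order of the 2 middle groups is therefore not settled for Tgtp1 and Tgtp2.

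Across fractions of different tumors, all 7 genes were higher in the OVA T cell fraction than in the B16-F10 melanoma sort, as were 45.7% of genes. Here Igtp differed least, 1.83-fold (log2 0.87, SE 0.0171), and Iigp1 most, 9.33-fold (log2 3.22, SE 0.0207). All 7 were also higher in the B16-F10 T cell fraction than in the OVA melanoma sort, as were 36.4% of genes, from 1.985-fold for Irgm1 (log2 0.99, SE 0.0285) to 3.03-fold for Iigp1 (log2 1.6, SE 0.0267). These comparisons share libraries with those above.

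The make-up of the family differed in the melanoma sort labelled B16-F10. The 3 regulators took 62.2% ± 0.336 of the counts of the 7 genes there, 39.7% ± 1.17 in the OVA melanoma sort, 34.3% ± 0.308 in the B16-F10 T cell fraction and 35.3% ± 0.0757 in the OVA T cell fraction. The libraries of the B16-F10 melanoma sort lay between 62.0% and 62.6%, and all other libraries between 33.9% and 40.6%. Irgm1 alone took 29.6% ± 0.319 of the family's counts there against 15.4% ± 0.121 to 20.1% ± 0.880 in the other groups. Iigp1 took 7.83% ± 0.305 there, against 18.4% ± 0.444 to 21.35% ± 0.0526 elsewhere. The number of Irgm1 counts per Iigp1 count was 3.78 ± 0.163 in the B16-F10 melanoma sort, 1.09 ± 0.0723 in the OVA melanoma sort, and 0.720 ± 0.00502 and 0.884 ± 0.0116 in the B16-F10 and OVA T cell fractions. The shares follow transcript length as well as level, so only the same gene is compared between groups here. In the B16-F10 melanoma sort the sums of all marker lists of other cells were lowest, except B cell markers (6.14 ± 0.717 CPM there, 4.14 ± 0.144 CPM in the OVA melanoma sort).

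**Figure D3:**
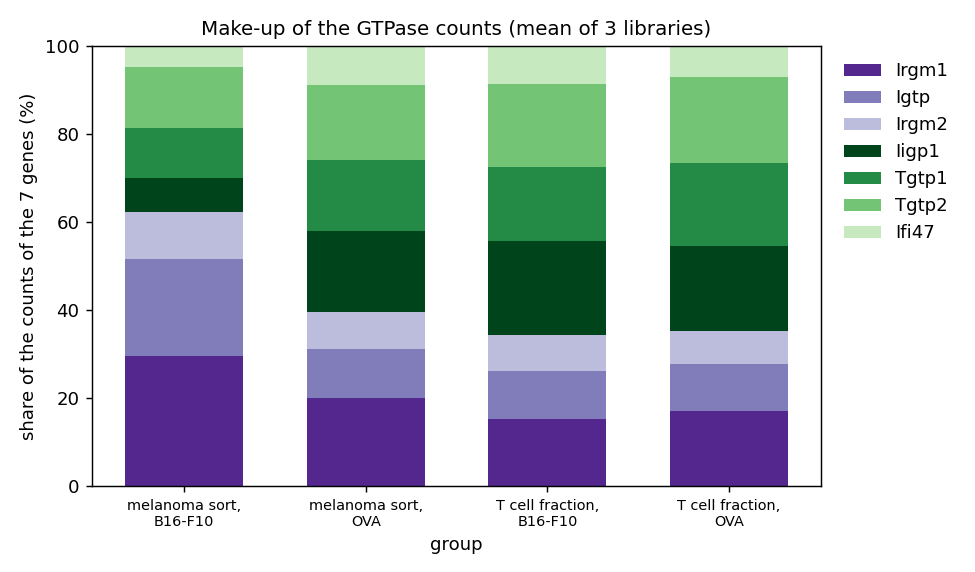
Stacked bars give the share of each gene in the summed counts of the 7 genes, as means of 3 libraries per group, with the regulators Irgm1, Igtp and Irgm2 in purple and the effectors in green. The purple part fills 62.2% of the bar of the B16-F10 melanoma sort and between 34.3% and 39.7% of the other bars.

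Over the 12 libraries, the log2 levels of the 3 regulators followed each other with Pearson's r from 0.983 to 0.994, and those of the 4 effectors with r from 0.956 to 0.998. Between a regulator and an effector r ran from 0.718, for Igtp with Iigp1, to 0.958, for Irgm2 with Tgtp2. These values describe 4 groups of closely similar libraries and share their depth, so they carry little more than the order of 4 group means. By the same measure the gene most like the mean of the family, of 9762 genes with at least 10 CPM on average, was Irf1 (r = 0.9997), which encodes the ISRE-binding factor IRF1. Gbp6, a guanylate-binding protein (r = 0.998), Zbp1, a sensor of Z-form nucleic acid (r = 0.997), Tmem140 (r = 0.996) and Ccdc25 (r = 0.993) came next. Taken one by one, Igtp and Irgm1 were most like Gm4841, a further GTPase of this family (r = 0.996 and 0.998), Irgm2 was most like the complement gene C1ra (r = 0.995) and Iigp1 most like Znfx1, an antiviral RNA helicase (r = 0.998). Tgtp1 was most like Tgtp2 (r = 0.998), Tgtp2 like Gbp6 (r = 0.998) and Ifi47 like Gbp4 (r = 0.998).

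The genes of interferon gamma and its signalling did not all follow the GTPases. Ifng, the ligand, had 0 counts over the 3 libraries of the B16-F10 melanoma sort, the group with the second highest summed GTPase level, which allows at most 0.0473 CPM there (3 counts over the group, counting error only). It stood at 1.34 ± 0.122 CPM in the OVA melanoma sort, 12.8 ± 0.790 CPM in the B16-F10 T cell fraction and 315 ± 7.76 CPM in the OVA T cell fraction, and rose by 4.67 on the log2 scale between the T cell fractions (SE 0.0368, edgeR adjusted p = 1.36e-33). The receptor gene Ifngr1 had 27.8 ± 0.710 CPM in the B16-F10 melanoma sort and 72.6 ± 0.739 CPM in that labelled OVA, and fell from 235.7 ± 1.81 to 185 ± 2.30 CPM in the T cell fractions. The kinase gene Jak2 had 32.8 ± 2.80 and 182 ± 2.60 CPM in the melanoma sorts and 387 ± 11.5 and 423 ± 7.26 CPM in the T cell fractions, in the order B16-F10 and OVA. Irf1, a transcription factor gene, shared its highest and lowest group with the GTPases, and its middle groups had the order of the regulators. Irf1 stood at 496 ± 10.2 and 172 ± 2.21 CPM in the melanoma sorts and 367 ± 8.43 and 1433 ± 11.4 CPM in the T cell fractions. Socs1, a feedback inhibitor, rose in both comparisons, by 0.82 and 1.57 on the log2 scale, and so did Socs3 (2.71 and 0.68), Irf8 (2.86 and 1.45) and Jak1 (1.07 and 0.25). Ifngr2, the other receptor chain, had values of 0.55 and -0.20, Irf9, a transcription factor gene, -0.16 and 0.44, and Ptpn2, a phosphatase that acts on the pathway, -0.30 and 0.24. Of the 11 genes of this list reported, 8 rose and 3 fell between the melanoma sorts (median 1.07), and 9 rose and 2 fell between the T cell fractions (median 0.44). Over all genes tested, 42.0% rose and 37.4% fell between the melanoma sorts, and 23.7% rose and 22.4% fell between the T cell fractions. It was not tested which cells of the mixed sorts held the transcripts of this list.

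**Figure D4:**
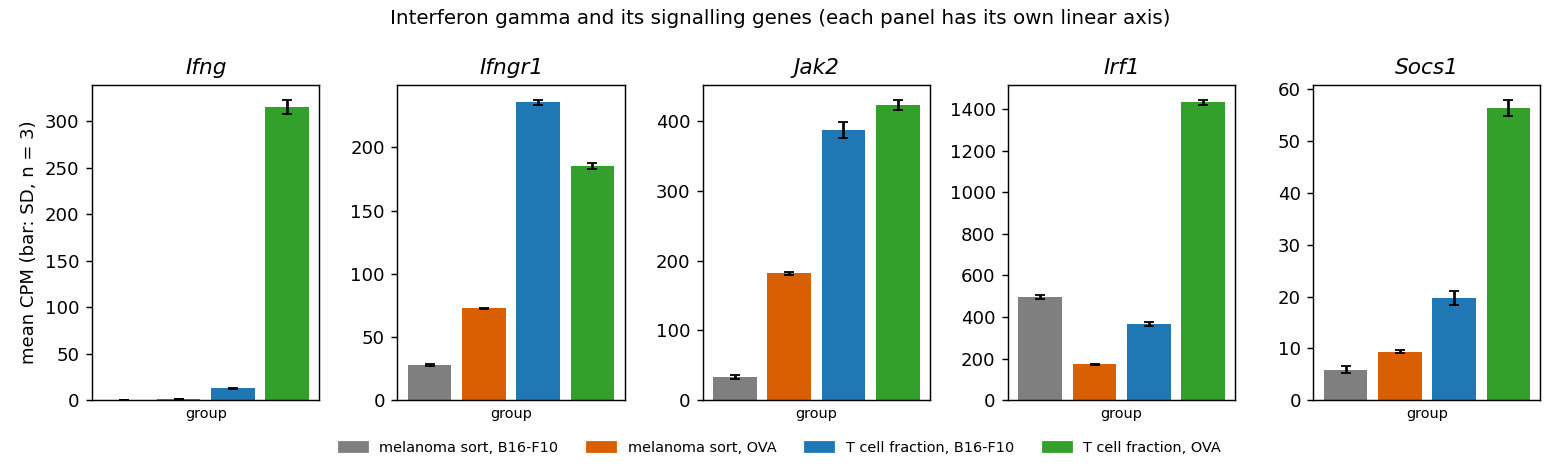
Bars give the mean CPM of 5 genes of interferon gamma signalling in the 4 groups, with the SD of 3 libraries and a linear axis of its own in each panel. Irf1 is lowest in the OVA melanoma sort and highest in the OVA T cell fraction, as the GTPases are, whereas Ifng is at 0 in the B16-F10 melanoma sort and Ifngr1 and Jak2 are lowest there.

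Of the other GTPases of the family, 10 of 19 symbols tried, several of them synonyms, were found and 8 were tested. Between the melanoma sorts 4 fell and 4 rose (median -0.79), close to the shares over all genes (37.4% and 42.0%). Gm4841 went from 12.7 ± 0.654 to 0.517 ± 0.113 CPM and Gm12185, whose promoter window holds the combined GAS and ISRE letters, from 23.45 ± 0.428 to 1.41 ± 0.4996 CPM (log2 -3.91, edgeR adjusted p = 9.56e-19). F830016B08Rik and Iigp1c fell as well, from 7.99 ± 0.0862 to 0.664 ± 0.122 CPM and from 9.02 ± 0.798 to 2.00 ± 0.247 CPM. 9930111J21Rik1, 9930111J21Rik2, Gm5431 and Irgq rose, Irgq, a divergent member called a quasi-GTPase, by 0.42 on the log2 scale. Between the T cell fractions 7 of the 8 rose and none fell (median 1.71), beside 23.7% and 22.4% of all genes. Gm4841 went from 2.54 ± 0.306 to 24.3 ± 0.998 CPM, Iigp1c from 4.68 ± 0.480 to 32.25 ± 0.899 CPM and Gm12185 from 3.33 ± 0.862 to 15.35 ± 0.600 CPM. Irgq had 28.6 ± 1.80 and 29.1 ± 0.706 CPM and overlapped between the fractions. Gm4841, Gm12185, F830016B08Rik and Iigp1c thus differed in the same directions as the 7 members. These genes are closely related in sequence and reads may be shared among them.

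The guanylate-binding proteins, large interferon-inducible GTPases that act on the same vacuoles, were more divided in the melanoma sorts. Of 11, 7 fell and 3 rose there (median -0.55), Gbp10, Gbp2 and Gbp6 by log2 values of -4.54, -1.41 and -1.65, while Gbp9 had 2.84. All 11 rose in the OVA T cell fraction (median 2.42), Gbp2 by 3.45 and Gbp6 by 2.42. The ubiquitin-like and autophagy genes whose products keep GTPases off or bring them to membranes were spread to both sides. Of 14, 5 rose and 6 fell between the melanoma sorts (median -0.01), and 7 rose and 3 fell between the T cell fractions (median 0.09), with Sqstm1, which encodes the autophagy receptor p62, at -0.59 and 0.28. Chemokine and antigen presentation genes induced by interferon gamma rose for 9 and fell for 2 of 12 between the melanoma sorts (median 0.47) and rose for all 13 between the T cell fractions (median 1.25). Cxcl9, a T cell attracting chemokine, rose in both, by 2.78 and 3.78. Type I interferon induced genes rose for 14 and fell for 4 of 18 between the melanoma sorts (median 1.05), with Irf7 at 4.99 and Oasl1 at 4.66, and rose for all 18 between the T cell fractions (median 0.80). The medians over all genes tested were 0.04 and -0.01 in these comparisons, in which 42.0% and 23.7% of genes rose and 37.4% and 22.4% fell. Macrophage and monocyte markers had mean sums of 13.4 and 1952 CPM in the B16-F10 and OVA melanoma sorts. Which cells of the sorts held the transcripts of these lists was not tested.

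Other genes with the promoter letters lay to both sides, with more rises than falls, as was also so over all genes tested. Of 454 tested genes besides the members whose window holds the ISRE letters, 221 rose and 167 fell between the melanoma sorts (median 0.14), and of 444 tested between the T cell fractions 156 rose and 93 fell (median 0.06). For the GAS letters, 430 of 955 rose and 365 fell between the melanoma sorts (median 0.07), and 284 of 923 rose and 182 fell between the T cell fractions (median 0.03). Among all genes tested between the melanoma sorts, 42.0% rose and 37.4% fell (median 0.04). The shares of all genes between the T cell fractions were 23.7% and 22.4% (median -0.01). Igtp, Irgm2, Tgtp1 and Tgtp2, which hold both, and Irgm1, with only the ISRE letters, rose by 2.20 to 2.43 between the T cell fractions. Ifi47, with neither in the window searched, rose by 1.97, and Iigp1, whose promoter was not searched, by 2.13. Between the melanoma sorts, with TMM scaling, the genes with letters ran from -2.73 for Igtp to -1.26 for Tgtp1. Ifi47 and Iigp1 had -0.85 and -0.52 there, and their sign depended on the scaling, as given above. Whether the letters bear on these values was not tested.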

How the data were processed

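The deposited table holds raw read counts per gene, made by the authors with HISAT2 2.0.5 and featureCounts 1.6.0 against GRCm39, per the submitters' processing notes. The libraries are poly-A messenger RNA, per the labels' protocols. The annotation release, the strand setting and the treatment of reads that map to several genes are not given in the sources used here. Genes were filtered with filterByExpr by group, scaled by TMM and tested with edgeR 4.0.16 (R 4.3.3), quasi-likelihood F test, with Benjamini-Hochberg adjustment over all genes tested and a threshold of 0.05. The comparison of OVA with B16-F10 within a fraction used its 6 libraries, and all other comparisons used 12. Standard errors are the log2 fold change divided by the square root of F, and 95% intervals are 1.96 SE to each side. The test against a fold of 2 was added after seeing the data. DESeq2 1.42.0 and limma 3.58.1 were alternatives. Replicate pairs of a group differed by more than sampling noise (chi-square per degree of freedom from 1.51 to 1.77), so none was merged.

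The members and all gene lists were chosen with earlier results of these data known. The genes named are the 7 members, all genes of the lists of other GTPases and of interferon gamma signalling that were found (those with few counts by number only), up to 4 genes of each other list with the smallest adjusted p between the melanoma sorts, and the genes most like the family or a member in log2(CPM + 1). One item of the lists is not reported here. Promoter windows came from RefSeq on GRCm38.p6, another build than that of the counts, and were used for sequence only.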

Additional observations from a re-analysis of the deposited data

Results flagged for a closer look

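With TMM scaling, the difference between OVA and B16-F10 tumors for all 7 GTPases had the opposite sign in the T cell fractions and in the melanoma sorts, and the difference between those effects passed its own test (edgeR interaction term over 12 libraries). It was 4.964 for Igtp, 4.725 for Irgm1, 4.261 for Irgm2, 3.779 for Tgtp2, 3.685 for Tgtp1, 2.814 for Ifi47 and 2.654 for Iigp1 on the log2 scale. With libraries scaled to the melanoma cell markers, Ifi47 (0.20) and Iigp1 (0.52) were higher in the OVA melanoma sort, the same sign as in the T cell fractions, and the difference of effects was not computed under that scaling. With TMM scaling the difference was called above 0 (edgeR adjusted p under 0.05) for 27.7% of all genes tested. Its median over all genes tested was -0.16.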

How the results depend on the processing

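Of 798 values of the 7 genes under other settings, 784 kept their direction and their side of the threshold, 10 lost the call and 4 changed sign. The 4 were Iigp1 (0.52) and Ifi47 (0.20) between the melanoma sorts with melanoma cell marker scaling, and Tgtp1 (-0.0402) and Tgtp2 (-0.157) between the T cell fraction and the melanoma sort of B16-F10 tumors with library totals. The lost calls came from the test against a fold of 2, apart from the following for Tgtp2 within B16-F10 tumors. Tgtp2 was not called there with no filter on low counts (0.03, edgeR adjusted p = 0.467), nor without T cell fraction B16-F10 replicate 1. The median of all genes moved from 0.04 to 1.09 with melanoma cell marker scaling of the melanoma sorts. Library totals moved it from 0.12 to -0.12 within B16-F10 tumors. The cause of the sign changes was not tested. Melanoma cell marker scaling gave 15347 genes higher and 645 lower between the melanoma sorts, with 2 members higher, and 95.97% of its calls were higher against 52.91% with TMM. Library totals gave 2 members higher in the B16-F10 T cell fraction than in the B16-F10 melanoma sort, and moved the share of calls that were higher between the T cell fractions from 51.32% to 38.69%.

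Against a fold of 2, a setting that asks for more by construction, the genes higher and lower were 3867 and 797 between the melanoma sorts, 296 and 154 between the T cell fractions, 5445 and 3268 within B16-F10 tumors (1 member higher), 1980 and 2315 within OVA tumors, 1703 and 2126 for the B16-F10 T cell fraction against the OVA melanoma sort, 5462 and 3401 for the OVA T cell fraction against the B16-F10 melanoma sort, and 632 and 4338 for the difference of effects. Leaving out 1 library at a time kept all calls of the members except Tgtp2 within B16-F10 tumors, whose values ran from 0.05 to 0.10.

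Libraries share replicate numbers, but same-numbered libraries had correlations of deviations from -0.05 to 0.16, so a number is not taken as a pairing. Libraries correlated best with their own number in 6 of 6 cases between the melanoma sorts and in 1 of 6 between the T cell fractions, a hint from the data and not from the design. With the replicate block, 7214 genes rose and 6442 fell between the melanoma sorts (7322 and 6516 without it), 3897 rose and 3679 fell between the T cell fractions (3912 and 3711 without it), and no call of a member changed.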
